A study of Mus musculus with 2 samples.

Results

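Hedgehog proteins are secreted ligands that bind the receptor Ptch1 and thereby release the membrane protein Smo, which passes the signal through the primary cilium to the Gli transcription factors. Gli2 mainly activates and Gli3 mainly represses target genes, and Ptch1, Gli1 and Hhip are themselves induced by the signal, so that Ptch1 and the ligand-binding protein Hhip limit its range. In the growth plate, Ihh is made by chondrocytes that leave the proliferating columns, and it acts together with parathyroid hormone-related protein to set the pace of hypertrophic differentiation. Shh is known from the limb bud, the notochord and the floor plate, and Dhh from the testis and the nerve sheath.

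The 9 genes described here, of 21887 protein-coding genes on the standard chromosomes of the gene table, were chosen by name: the ligand genes Ihh, Shh and Dhh, and a group of 6 here called response genes, namely Ptch1, Smo, Gli1, Gli2, Gli3 and Hhip. H3K27me3, the mark set by PRC2 (Polycomb repressive complex 2), was mapped in wild-type chondrocytes that had been released with collagenase from rib cartilage of newborn CD1 mice and cultured overnight. The data were 1 library of DNA precipitated with an anti-H3K27me3 antibody (ChIP, 17237574 tags after filtering) and 1 input library (17004082 tags), and the number of animals behind them was not given. The libraries were assigned by their titles, although their antibody tags are swapped relative to the titles. With 1 library per group no value has a replicate error or a p-value of its own, and all comparisons below describe these libraries.

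The measurement was the authors' list of 19359 regions in which the ChIP library exceeded the input (peaks). For each peak the list gives a pileup, the mean number of ChIP fragments over its bases, and a fold enrichment, which is the pileup over the input background after 1 is added to both. The median peak was 1270 bp wide, with a pileup of 11.04 and a fold enrichment of 3.16. A gene was called marked when the deposited annotation joined a peak within 5 kb to it. These files hold no RNA measurement, so the cell type could not be checked by expression. Of 13 marker genes of chondrocytes, with Col2a1, Acan and Sox9 among them, 0 had a peak, against 20.7% of all protein-coding genes, and their nearest peaks lay 31.2 to 2126.5 kb away.

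Of the 9 Hedgehog genes, 6 were marked, against 20.7% of all protein-coding genes. All 3 ligand genes and 3 of the 6 response genes (Ptch1, Gli1 and Hhip) had a peak. The response genes with a peak were those that Hedgehog signalling induces, and Smo, Gli2 and Gli3 had none. By the deposited gene models, however, only Hhip of these 3 induced genes had its 5′ end under a peak. The Gli1 peak reached 366 bp into the 3′ end of the gene. The Ptch1 peak lay 4764 bp upstream and had a mean q-value of 0.0714. In all, 14 peaks were joined to the 9 genes. The 7 at the ligand genes summed to 47.7 kb and the 7 at the response genes to 23.6 kb. These sums include sequence outside the genes, and over the genes themselves the 2 groups were closer. There, peaks covered 3.42 kb at Ihh, 8.61 kb at Shh and 0 kb at Dhh. At the response genes they covered 9.725 kb at Hhip, 0.366 kb at Gli1 and 0 kb at Ptch1.

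**Figure D1:**
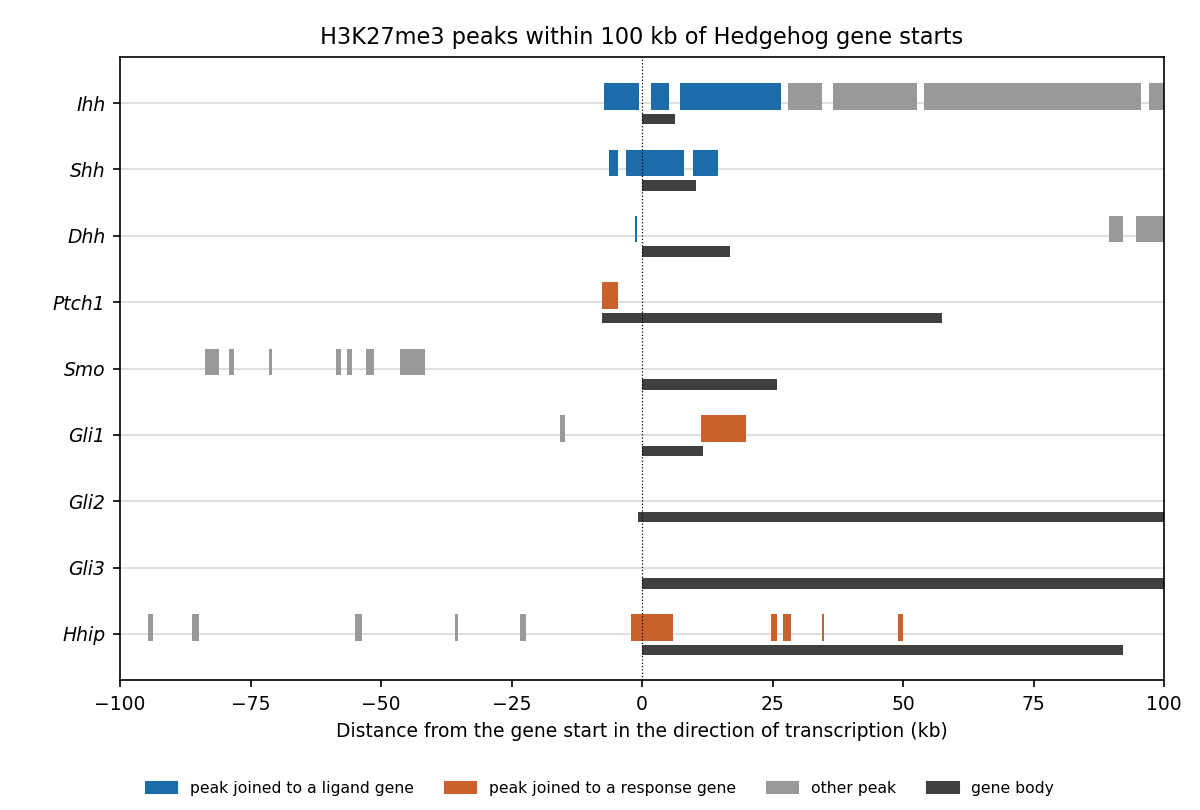
H3K27me3 peaks (upper boxes) and gene bodies of the gene table (lower boxes) by distance from the gene start in kb, turned so that transcription runs to the right; blue and orange boxes are peaks joined to the gene, grey boxes are other peaks. Peaks lie close together at Ihh and Shh, a peak covers the start of Hhip, the 7 peaks in the window of Smo all lie upstream, and the windows of Gli2 and Gli3 hold none.

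Promoter sequence was available for 7 of the 9 genes (RefSeq, GRCm38.p6), and the 250 bases before the start are shown for 4 that differ in their position relative to peaks. Those of Hhip (chr8:80058009-80058258, minus strand) lay entirely under a peak. Those of Ihh (chr1:74951673-74951922, minus strand) lay in a gap between 2 peaks, 319 bp from the nearer one, and those of Dhh (chr15:98898541-98898790, minus strand) lay 779 bp from a narrow peak. Those of Gli3 (chr13:15463473-15463722, plus strand) lay 938 kb from any peak. Capitals mark CpG dinucleotides.
Hhip: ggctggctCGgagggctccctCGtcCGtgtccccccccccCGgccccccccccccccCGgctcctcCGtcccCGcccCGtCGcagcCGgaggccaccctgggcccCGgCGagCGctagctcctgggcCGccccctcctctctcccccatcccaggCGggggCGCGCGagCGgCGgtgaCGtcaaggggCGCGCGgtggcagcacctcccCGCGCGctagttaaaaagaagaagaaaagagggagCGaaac
Ihh: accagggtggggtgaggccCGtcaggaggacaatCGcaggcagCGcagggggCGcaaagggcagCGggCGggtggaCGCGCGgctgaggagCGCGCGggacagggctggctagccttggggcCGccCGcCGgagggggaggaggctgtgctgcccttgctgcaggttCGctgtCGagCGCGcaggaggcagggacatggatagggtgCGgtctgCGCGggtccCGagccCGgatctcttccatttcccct
Dhh: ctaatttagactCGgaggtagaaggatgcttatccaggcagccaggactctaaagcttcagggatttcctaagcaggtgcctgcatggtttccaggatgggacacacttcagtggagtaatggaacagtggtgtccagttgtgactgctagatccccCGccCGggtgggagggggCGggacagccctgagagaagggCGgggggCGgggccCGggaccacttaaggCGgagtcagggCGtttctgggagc
Gli3: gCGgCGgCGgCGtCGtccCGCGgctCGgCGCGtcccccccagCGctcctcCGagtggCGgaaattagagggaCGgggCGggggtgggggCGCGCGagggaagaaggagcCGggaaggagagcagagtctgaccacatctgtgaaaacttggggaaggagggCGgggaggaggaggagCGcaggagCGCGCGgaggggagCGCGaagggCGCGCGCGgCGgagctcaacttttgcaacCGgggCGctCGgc

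CpG dinucleotides are dense in promoters that PRC2 is known to occupy. The printed bases held 28 CpG at Hhip, 24 at Ihh, 9 at Dhh and 34 at Gli3. Ptch1 had 41, Gli2 22 and Smo 15. The number of CpG did not separate the promoter under a peak from the others, since Gli3 and Ptch1 held more than Hhip. Over all 17492 protein-coding promoters in the table the median was 10, and it was also 10 in the 840 that a peak touched. The core of the site that Gli factors bind, GACCACCCA, searched exactly as written and as its reverse complement TGGGTGGTC, occurred in none of the 7 promoter windows (0 of 7) and in 0.154% of all protein-coding ones.

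Ihh (chromosome 1, 74945320 to 74951651, minus strand), the ligand of the growth plate itself, had the largest summed width of joined peaks among the 9 genes, 29.6 kb in 3 peaks. Of this, 3.42 kb lay over the gene itself, less than the 8.61 kb over Shh and the 9.725 kb over Hhip. A peak of 19.4 kb, also joined to the neighbouring gene Cfap65, ended 856 bp downstream of Ihh (74925102 to 74944464). It had a pileup of 13.07 against an input background of 2.96 and a fold enrichment of 3.55, and it was wider than 99.0% of all peaks. A peak of 3.42 kb lay inside the gene (74946568 to 74949985), with a pileup of 12.50, an input background of 2.77 and a fold enrichment of 3.58. The third, of 6.80 kb, began 590 bp upstream (74952241 to 74959038), with a pileup of 12.49, an input background of 2.87 and a fold enrichment of 3.48. Thus 54.0% of the gene was under a peak, but not its 5′ end, which fell in the gap of 2255 bp that separates the inner from the upstream peak. All 3 peaks had a mean q-value below 0.01 (0.00595, 0.00638 and 0.00914).

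The mark at Ihh was the end of a longer marked stretch. Joined across gaps of up to 5 kb, the peaks at Ihh were part of a domain of 8 peaks and 124.6 kb (74834423 to 74959038), of which 89.7% was covered. It held Cdk5r2, Fev and Cryba2, genes of neurons, serotonergic neurons and the lens, and Cfap65 (deposited as Ccdc108). Wnt10a and Wnt6, which encode Wnt ligands, lay 141.1 and 160.0 kb from Ihh and were covered over their whole length and to 73.2%. On the other side the domain ended with the upstream peak of Ihh, and no peak followed for 261.2 kb. That stretch includes Nhej1, a DNA repair gene whose introns are known to hold enhancers of Ihh, and 0 peaks lay within its 157.9 kb. Of 11 other protein-coding genes within 200 kb of Ihh, 7 had a peak over them, where the deposited annotation has 14.2% of all protein-coding genes with a peak over the body. These 7, the genes named above and Prkag3 (2.53 kb covered), all lay on the downstream side.

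Shh (chromosome 5, 28456816 to 28467101, minus strand) also had 3 peaks, of 17.8 kb in all. A peak of 4.86 kb (28452487 to 28457342) crossed the 3′ end, with a pileup of 11.66 against an input background of 2.67 and a fold enrichment of 3.45. The main peak of 11.2 kb (28459016 to 28470222) covered the 5′ end, with a pileup of 11.90 against 2.75 and a fold enrichment of 3.44. A peak of 1.72 kb followed 4646 bp upstream, with a pileup of 10.66 against 2.67 and a fold enrichment of 3.17. Together they covered 83.7% of the gene, the largest covered share among the 9 genes. Their mean q-values were 0.0147, 0.0131 and 0.0443, so none was at or below 0.01, and all 3 pileups were below the 3 at Ihh.

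Unlike the mark at Ihh, that at Shh was set apart from other peaks by long gaps, although 11 peaks, its own included, lay within 200 kb of the gene. Only 1 other protein-coding gene lay within that distance, and it had no peak over it. The 3 peaks joined to Shh formed a domain of 21.0 kb with no other peak for 141.7 kb on the downstream side and 933.5 kb on the upstream side. The median gap between neighbouring peaks of the genome was 6.76 kb, with the short gaps inside such domains counted as well. The upstream side holds the distant enhancers of Shh, the farthest known of which, that of the limb bud, lies in an intron of Lmbr1. From the last Shh peak to the far end of Lmbr1, a distance of 905 kb, there were 0 peaks. Gaps of 900 kb or more were found 608 times among 19339, a small share, so an interval of this length is uncommon but not particular to Shh. The same 3 peaks were joined to 9530036O11Rik, a non-coding RNA gene beside Shh, and which transcript they belong to cannot be told from the list.

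Dhh (chromosome 15, 98893032 to 98898540, minus strand) was marked in name only by the 5-kb reach of the annotation. Its single peak of 343 bp (98899569 to 98899911) lay 1029 bp upstream of the gene and was also joined to Lmbr1l. The pileup was 10.22 against an input background of 2.79, the fold enrichment 2.96 and the mean q-value 0.0861. At this width the pileup corresponds to about 12 ChIP fragments of 294 bp, against 861 in the widest peak of Ihh, and 4.95% of all peaks were narrower. The gene table gives Dhh a longer model that begins at 98881615, and the distances that follow are measured from it. The nearest downstream peak was 72.6 kb away, and upstream 155.3 kb separated the Dhh peak from the next. Wnt1 and Wnt10b, 87.8 and 103 kb away, had wide peaks as Wnt6 and Wnt10a had beside Ihh. A peak of 24.6 kb (98779406 to 98803978, pileup 13.21) covered all of Wnt1, but there the mark did not run on to the Hedgehog gene. Between Wnt1 and Dhh, Ddn, a gene of neuronal dendrites, was covered to 40.8%, and the bodies of Prkag1, Kmt2d and Rhebl1, which follow towards Dhh, were free of peaks. Of 17 other protein-coding genes within 200 kb of Dhh, 5 had a peak over them, against the same 14.2% of all genes, namely Wnt1, Wnt10b (57.3% covered) and Ddn on the downstream side, and Prph (40.6%) and C1ql4 (54.3%), both known from neurons, on the upstream side.

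**Figure D2:**
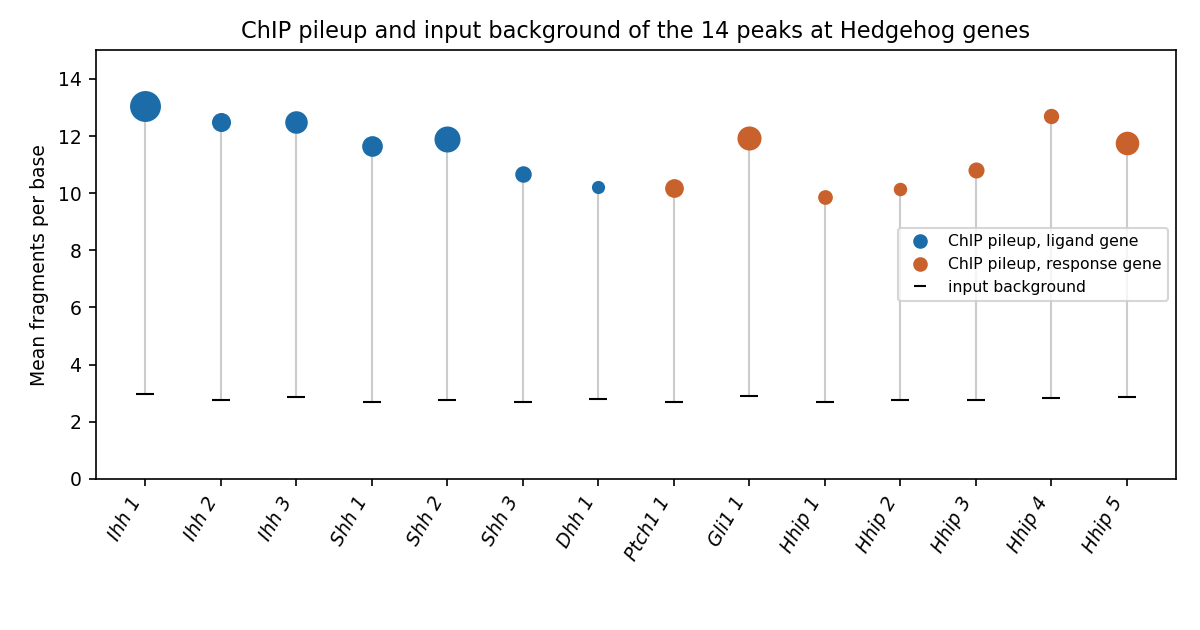
ChIP pileup (circles, area growing with peak width) and input background (bars) of each of the 14 peaks, as mean fragments per base; peaks of a gene are numbered by position, and since all these genes are on the minus strand peak 1 is the one farthest downstream. The input background, computed back from the pileup and the fold enrichment, stays between 2.67 and 2.96, and ChIP lies between 9.86 and 13.07. Over all peaks the lowest background is 2.67 and the median 2.75, so at these 14 peaks the fold enrichment largely follows the pileup.

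Among the response genes, Hhip (chromosome 8, 79966116 to 80058006, minus strand), the antagonist that binds the ligands, had the most peaks. A peak of 7975 bp (80052123 to 80060097) covered its 5′ end, with a pileup of 11.77, an input background of 2.86, a fold enrichment of 3.31 and a mean q-value of 0.0203. The other 4 lay inside the gene. Closest to the start, 24.7 kb from it, a peak of 1111 bp (80032188 to 80033298) had a pileup of 12.72, a fold enrichment of 3.57 and a mean q-value of 0.00710. It was the strongest of the 5, stronger in pileup than 91.4% of all peaks although it was narrower than the median peak. A peak of 1457 bp followed at 27.1 kb (80029456 to 80030912), with a pileup of 10.81, a fold enrichment of 3.13 and a mean q-value of 0.0473. The remaining pair, of 417 bp at 34.5 kb (80023092 to 80023508) and 856 bp at 49.0 kb (80008102 to 80008957), had pileups of 10.15 and 9.86, the latter the lowest value in the whole list. At these widths they correspond to about 14 and 29 fragments, against 319 in the peak at the start. The 5 peaks covered 10.6% of the gene, with most of the covered length at the start. In all, 14 peaks lay over Hhip or within 100 kb of it, and the nearest that were not joined to it lay 22.1 kb upstream and 58.9 kb downstream.

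Gli1 (chromosome 10, 127329890 to 127341589, minus strand), the Gli gene whose expression is a common readout of the pathway, had a peak of 8.59 kb (127321664 to 127330255) with a pileup of 11.95, an input background of 2.90, a fold enrichment of 3.32 and a mean q-value of 0.0176. It reached only 366 bp into the 3′ end of Gli1, or 3.13% of the gene, and covered the neighbouring Arhgap9, a GTPase-activating protein gene, completely. The start of Gli1 was 11.3 kb from it. On the upstream side the nearest peak was one of 968 bp (pileup 10.52) joined to Inhbe and Inhbc, genes of activin subunits, 14.7 kb away.

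Ptch1 (chromosome 13, 63511534 to 63565520, minus strand), the receptor, had 1 peak of 3.19 kb (63570284 to 63573473), 4764 bp upstream and thus just inside the 5-kb reach. The pileup was 10.19 against 2.67, and 14.5% of all peaks had a lower one, with a fold enrichment of 3.05 and a mean q-value of 0.0714. Its place depends on the gene model. The gene table extends Ptch1 upstream to 63573460, and 3177 bp of the peak then lie inside the gene. The nearest other peaks were 584 kb upstream and 2924 kb downstream of Ptch1.

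The 3 response genes without a peak lay at unequal distances from one. Smo (chromosome 6, 29735497 to 29761366), the transducer, was 41.6 kb from a peak of 4.79 kb (29689103 to 29693895, 3.30-fold, pileup 11.82) joined to Tspan33, and 7 peaks lay within 100 kb, all upstream. Gli2 (chromosome 1, 118834061 to 119054405) was 78.0 kb from a peak of 1116 bp with a pileup of 9.86. Gli3 (chromosome 13, 15463723 to 15730026), mainly a repressor of the pathway, was the farthest, 938 kb from a peak of 941 bp joined to Hecw1 on one side and 2087 kb from the next on the other. Both long genes, of 220.3 and 266.3 kb, were thus free of peaks over their whole length. The lowest pileup of any peak was 9.86, so a weaker mark at these 3 genes was not detectable at this depth.

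Stricter readings of the list separated the genes further. A peak overlapped the gene body in 4 of the 9 genes, against 14.2% of all protein-coding genes, namely Ihh, Shh, Gli1 and Hhip. The same 4 genes kept a peak when its mean q-value had to be 0.05 or lower, against 16.4%. The 5′ end was covered in 2, Shh and Hhip, against 4.45%. With the longer gene-table model of Ptch1, its peak would count as overlapping the gene and covering its 5′ end, and Ptch1 would join both groups. With a limit of 0.01 on the mean q-value, 2 genes were left, Ihh and Hhip, against 5.90%. Of the 47.7 kb under peaks at the ligand genes, Ihh accounted for 29.6 kb, Shh for 17.8 kb and Dhh for 0.343 kb.

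Peak by peak, the ligand genes and the response genes overlapped in every measure. The 7 ligand peaks were 343 bp to 19.4 kb wide with a median of 4.86 kb, and the 7 response peaks 417 bp to 8.59 kb with a median of 1.46 kb. The pileup ran from 10.22 to 13.07 (median 11.90) at the ligand genes and from 9.86 to 12.72 (median 10.81) at the response genes. The fold enrichment ran from 2.96 to 3.58 with a median of 3.45, against 2.96 to 3.57 with a median of 3.13. Of the ligand peaks 6 were wider and 6 more enriched than the median peak of the list, and of the response peaks 4 were wider and 3 more enriched. These medians rest on 2 ligand genes and on Hhip, which holds 5 of the 7 response peaks, and peaks of 1 gene are not independent.

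**Figure D3:**
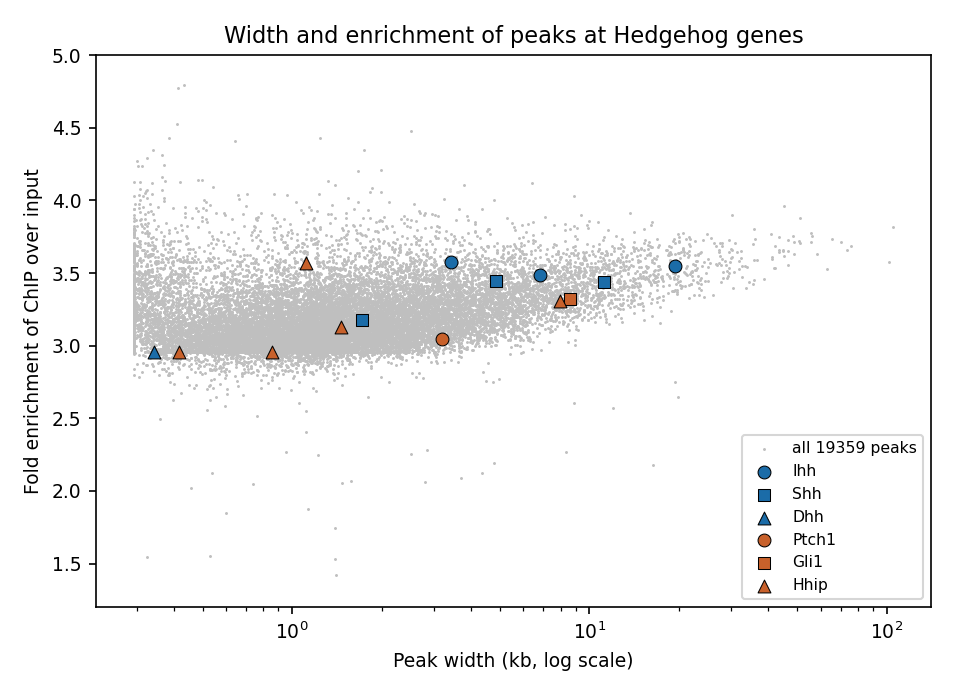
Fold enrichment against width (kb, log scale) for all 19359 peaks (grey) and the 14 peaks at Hedgehog genes, in blue for ligands and orange for response genes. The peaks of Ihh and the wider ones of Shh lie in the upper right part of the cloud, and Dhh at its lower left edge.

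The share of sequence under peaks around each gene start does not depend on the reach of the annotation. Within 10 kb on each side, 65.0% of the sequence at Ihh and 65.8% at Shh was under peaks, in each case more than at 98.3% of 17492 protein-coding gene starts. Hhip followed with 39.9% and Ptch1 with 15.9%, Dhh had 1.71%, and Smo, Gli1, Gli2 and Gli3 had 0%. Of all gene starts 79.5% had none. Within 100 kb Ihh still had 48.3%, above 99.7% of gene starts, while Shh fell to 8.89%. The difference between both follows the layout given above, a long domain at Ihh and an isolated one at Shh.

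**Figure D4:**
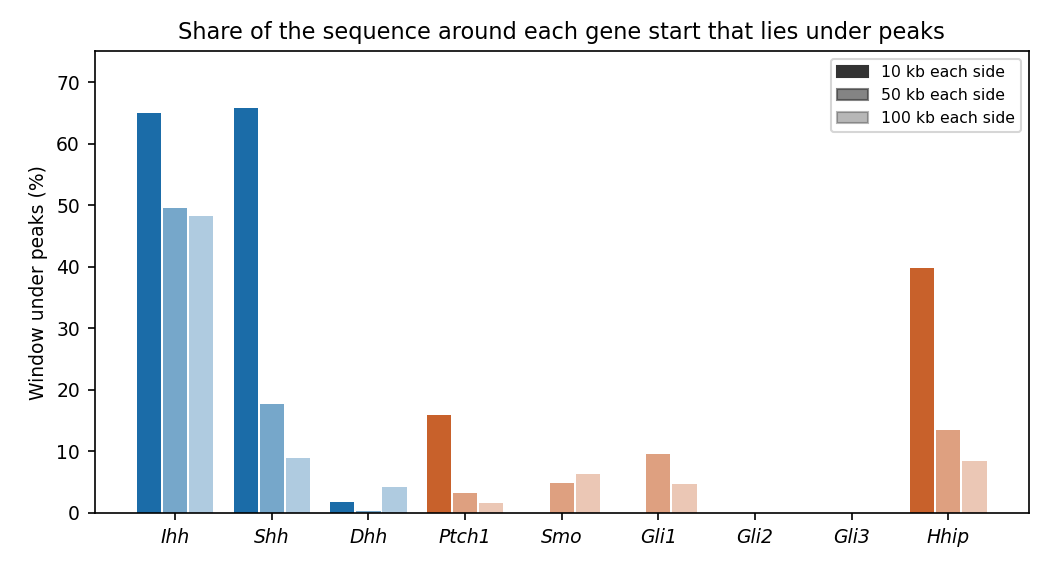
Share of the sequence under peaks (%) within 10, 50 and 100 kb on each side of the start of each gene, ligands in blue and response genes in orange, paler for wider windows. The bars of Ihh stay high in all 3 windows, those of Shh and Hhip drop as the window widens, and Gli2 and Gli3 have 0 throughout.

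Other genes of the pathway were read in 5 lists, with 20.7% of all protein-coding genes marked. At this share a list of 5 genes would hold few marked ones or none. No gene for the release and transport of the ligands had a peak (0 of 5), nor did any of the cilium and cytoplasm (0 of 13), with Sufu and Kif7, which restrain and direct the Gli proteins, at 33.8 and 52.8 kb from the nearest peak. Of 4 other surface proteins 1 was marked, the endocytic receptor gene Lrp2 (5 peaks, 15.5 kb). The co-receptor genes Cdon (47.3 kb), Boc (144 kb) and Gas1 (226 kb) were far from peaks.

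Of 13 targets in cartilage and mesenchyme 5 were marked. These were Hand2, a limb patterning gene, under a single peak of 51.2 kb with a fold enrichment of 3.70, Foxf2 (28.5 kb in 2 peaks) and Foxf1 (20.1 kb in 2 peaks), forkhead genes of the mesenchyme, Nkx3-2 (15.9 kb in 2 peaks), a homeobox gene that promotes cartilage formation, and Mycn (11.0 kb in 2 peaks). Pthlh, which encodes parathyroid hormone-related protein, and its receptor gene Pth1r were not, and lay 158 and 68.5 kb from a peak. Nor was the forkhead gene Foxc2, at 23.8 kb. Ccnd2, a cyclin gene, was not joined to a peak by the deposited annotation but lay 3.94 kb from one in the gene table. Both genes were singled out after their values were seen. All 5 targets of the ventral neural tube were marked, with 21.6 kb at Foxa2, 24.7 kb at Nkx2-2, 22.8 kb at Nkx2-9, 33.3 kb at Nkx6-1 and 43.6 kb at Olig2. The 5′ end was covered at 4 of these 5 genes and at 1 of all 13 targets in cartilage and mesenchyme, Hand2, with a share of 4.45% over all protein-coding genes. The lists were chosen with earlier results of these data known. Their counts therefore only describe the genes listed, and a difference from the shares over all genes was not tested. In all, 11 of these 40 genes (27.5%) were marked, against 20.7% of all protein-coding genes, and 10 of the 11 were targets. Each of these 10 had more than 10 kb in its peaks, as Ihh, Shh and Hhip had, whereas Gli1, Ptch1 and Dhh had less. All 10 encode transcription factors, and of the targets without a peak only Foxc2 does. Gli2 and Gli3 encode such factors too and had no peak. The paper names genes of transcription factors and of signalling molecules among those preferentially marked in chondrocytes. This class was considered after the values were seen. Whether the mark goes with it or with being a target was not tested.

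**Figure D5:**
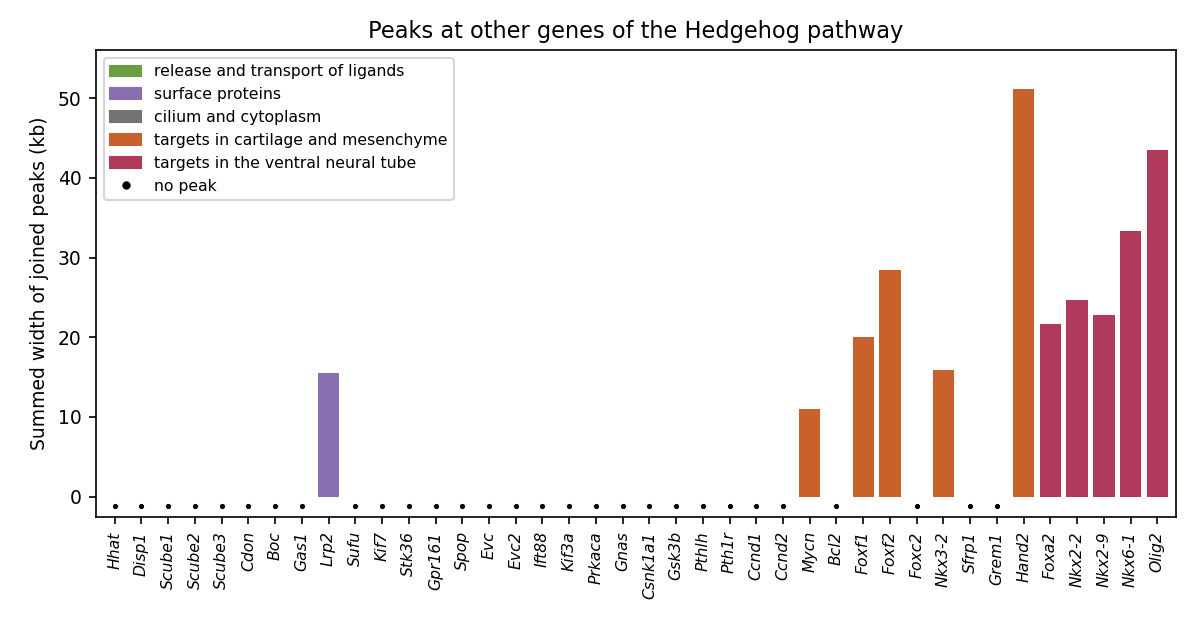
Summed width of the peaks joined to each of 40 other pathway genes (kb), coloured by list; dots mark genes without a peak. Bars appear at Lrp2, at 5 of 13 targets in cartilage and mesenchyme and at all 5 targets of the neural tube.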

How the data were processed

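The 2 libraries, ChIP and input, were grouped by title. Per the labels, reads were processed with CASAVA 1.8.4, aligned with Bowtie2 to mm10 (GRCm38) and passed to MACS2. Per the file headers, duplicates had been removed, and MACS 2.1.0.20140616 called broad peaks with a stated q-value cutoff of 0.05 and a fragment length of 294 bp. Mean q-values in the list reach 0.0991, so a looser limit, which the header does not give, applied to broad regions. The authors deposited for each peak a pileup (a coverage signal), a fold enrichment (a ratio) and −log10 p-values and q-values, averaged over the peak. A second deposited table joins peaks to Ensembl genes within 5 kb. The tool for this step is not given in the sources used here.

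The peaks of each gene were taken by symbol. Of 4987 deposited symbols, 4929 matched the RefSeq gene table of GRCm38.p6, 148 of them as a synonym. The input background was computed as (pileup + 1) / fold enrichment − 1, and fragments per peak as pileup × width / fragment length. Gene starts came from the promoter table, and for Shh and Gli1 from the deposited records. Distances, windows and overlaps were computed with Python 3.11.15 and pandas 2.3.3, and the functions were tested on simulated data. Depth was 17237574 and 17004082 filtered tags. The series given here has no replicate, so no test was run, and the q-values are those of the peak caller. The precision of a peak's values is unknown beyond the number of fragments.

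The genes and the pathway lists were chosen with earlier results of these data known. The rule for named genes was to name all 9 genes, their peaks, the nearest peaks, the genes that share these, covered genes within 200 kb of a ligand, and the marked genes of the pathway lists with 7 unmarked ones (Cdon, Boc, Gas1, Sufu, Kif7, Pthlh and Pth1r). One further gene chosen for the lists was left out of all counts, for a reason unrelated to its values, and is not reported here. Other genes named beside them (Prkag1, Kmt2d, Rhebl1, Nhej1 and Lmbr1) were chosen after their values were seen. The alternatives were thresholds on peaks, the rule that joins a peak to a gene, and the window.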

Additional observations from a re-analysis of the deposited data

How the results depend on the processing

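Across 11 results, 66 values were recomputed, of which 36 stayed within the limits set for them and 30 moved. The limit was 1.5 times for counts, lengths, medians and coverage, and the 95% Wilson interval for the share of protein-coding genes. These values have no direction, so a reversal was not possible. Filters can only remove peaks, so counts and lengths could only fall under them. Marked members numbered 2 with the mean q-value limited to 0.01, with peaks of 3.5-fold or more, and with the 5′ end covered. Each of these settings left 1 ligand and 1 response gene. The 5′ rule left 5 other pathway genes. The share of protein-coding genes was 16.4% at a q-value of at most 0.05, 5.90% at 0.01, 5.35% at 3.5-fold, 17.0% at a width of at least 1 kb, 14.2% with the gene body overlapped, 4.45% with the 5′ end covered, and 32.9% and 22% with a peak within 20 or 5 kb of the gene table's genes. At 0.01 and at 3.5-fold, the summed length was 29.6 and 22.8 kb at the ligands, and 1.11 kb at the response genes under both. The median width was 5.83 kb at a q-value of at most 0.05 and 5.11 kb at 0.01. Coverage within 50 kb of the starts, 22.5% at the ligands and 5.18% at the response genes, was 44.2 and 9.30% within 10 kb, 9.86 and 0.185% at 0.01, and 7.59 and 0.185% at 3.5-fold. No paired analysis was possible because only a single ChIP and a single input library were analysed here, which also leaves no replicate to omit. The lowest pileup called, 9.86, limits what could be found at genes without a peak.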
